A study of Mus musculus with 12 samples.

Results

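Mndal and Ifi203 are neighbouring genes of the p200 family, and they were examined beside 5 genes of the general interferon response: Stat2, Irf9, Bst2, Ifit3 and Ifi27. All 7 symbols were found in the table of normalized counts, which has 15759 entries, and all 7 passed the filter of a mean of at least 10 normalized counts that left 15369 genes. They were selected on their normalized counts over the 4 groups of these libraries, so for these 7 genes the levels and log2 fold changes (LFC) between genotypes and regions are a description and carry no test. Spinocerebellar ataxia type 1 (SCA1) is a neurodegenerative disease caused by an expanded CAG repeat in Atxn1. SCA1 KI mice (Atxn1 154Q/2Q) carry the expansion in 1 copy of their own Atxn1 gene, under its own regulatory sequence and in all cells that use it, and wild-type (WT) littermates were the controls. All mice were C57BL/6J and 12 weeks old, and received no treatment. The labels list males for RNA-seq, whereas the methods of the study describe males and females combined. Macrodissected whole cerebellum and cortex gave 3 libraries for each of the 4 groups: WT cerebellum (libraries 2, 4 and 6 in the table), SCA1 KI cerebellum (1, 3 and 5), WT cortex (B, C and D) and SCA1 KI cortex (A, E and F).

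The p200 (HIN-200, or PYHIN) proteins bind DNA through their HIN domains, and many begin with a pyrin domain that binds other proteins. In the mouse their genes lie in 1 cluster on chromosome 1, and the family was first known for its induction by interferon in white blood cells. Type I interferon acts through a pair of receptor chains and the kinases Jak1 and Tyk2 on Stat2, which works with Irf9 in a complex (ISGF3) that binds a DNA motif called the interferon-stimulated response element (ISRE). In the brain, microglia, endothelium and neurons can all respond to interferon, and many genes of this response have a low level without it.

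Reads on genes ranged from 29520855 to 38335590 in WT cerebellum, 36222298 to 51311309 in SCA1 KI cerebellum, 34103546 to 36704807 in WT cortex and 36770183 to 39927889 in SCA1 KI cortex. Normalized counts are reads scaled by 1 factor per library, and every value could be turned back into whole reads. Atxn1 itself had an LFC of 0.08 in the cerebellum (adjusted p = 0.837, limma) and −0.31 in the cortex (adjusted p = 0.132). A count of reads over the whole gene cannot show the repeat, so it does not check the genotype. Cerebellar genes marked the cerebellar libraries: the summed level of 10 Purkinje and granule cell markers lay between 255622 and 343264 normalized counts there and between 8172 and 12677 in the cortex. WT cerebellum library 2 stood apart from the other WT cerebellum libraries, with the lowest sum of these markers and the highest of microglia markers (9257, against 6997 and 7377), and without it the cerebellar LFC was 2.07 for Mndal and 1.36 for Ifi203 (1.94 and 1.34 with all libraries).

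On GRCm38 (GENCODE vM21), Mndal spans chr1:173849126-173942491 and Ifi203 spans chr1:173920407-173942672, both on the minus strand. The span annotated for Ifi203 lies inside that of Mndal, except for its first bases at the 5′ end. They share 37 exonic bases, 1.02% of those of Mndal and 0.552% of those of Ifi203. Of all stretches of 75 bases in the transcripts of Mndal, the read length of the study, 11.1% also occur in other genes, most of them in Ifi211 and Ifi205. For Ifi203 the share was 5.71%, with 1.87% shared with Mndal. Reads from these stretches could have been lost or given to a neighbour, and the settings of the counting are not given in the sources used here. The other 5 genes lie on other chromosomes: Stat2 at chr10:128270559-128292849, Irf9 at chr14:55603571-55610030, Ifit3 at chr19:34583531-34588731 and Ifi27 at chr12:103434211-103440239 on the plus strand, and Bst2 at chr8:71534255-71537456 on the minus strand. Ifit3 shares 41.1% of its 75-base stretches with its near copy Ifit3b, so its count is uncertain.

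The sequences just upstream of the starts of these genes are shown because Mndal and Ifi203 moved together and the ISRE is the motif that the Stat2 and Irf9 complex binds. They are the 250 bases before a RefSeq start on GRCm38.p6, written 5′ to 3′ on the strand of the gene, at chr1:173880188-173880437 for Mndal and chr1:173942493-173942742 for Ifi203, both read from the minus strand. Capitals mark the ISRE core, searched as GAAA, any pair of bases and GAAA on the gene's strand, and as TTTC, any pair of bases and TTTC for a match on the other.
Mndal: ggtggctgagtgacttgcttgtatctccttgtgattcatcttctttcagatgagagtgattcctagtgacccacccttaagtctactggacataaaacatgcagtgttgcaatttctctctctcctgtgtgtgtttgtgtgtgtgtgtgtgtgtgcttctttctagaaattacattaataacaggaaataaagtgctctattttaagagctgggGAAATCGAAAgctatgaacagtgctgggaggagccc
Ifi203: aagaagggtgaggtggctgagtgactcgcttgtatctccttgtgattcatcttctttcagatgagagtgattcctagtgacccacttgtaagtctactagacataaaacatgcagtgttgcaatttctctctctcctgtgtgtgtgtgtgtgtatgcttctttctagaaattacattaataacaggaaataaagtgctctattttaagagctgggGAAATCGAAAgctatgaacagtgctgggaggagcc
Aligned to each other with gaps allowed, these 2 windows were identical at 233 of 250 bases (93.2%), with 22 gap positions. The windows aligned were those with a core on the strand of the gene. The core began 36 bases before this RefSeq start of Mndal and 35 bases before that of Ifi203, with the same 10 letters. The window shown for Mndal lies inside the span that GENCODE gives this gene. The 5′ end of that span, chr1:173942491, lies next to the window shown for Ifi203. Which start the reads of Mndal came from was not tested. RefSeq gives each gene one more start. Its window held a core on the other strand 54 bases before it in Mndal, and no core in Ifi203. Aligned in the same way, AI607873, another p200 gene of the cluster, matched Mndal at 56.8% of the bases (42 gap positions) and Ifi203 at 55.6% (62 gap positions). The share that unrelated windows would give was not measured. AI607873 also had a core, 41 bases before its start (chr1:173741816-173741875, minus strand).
AI607873: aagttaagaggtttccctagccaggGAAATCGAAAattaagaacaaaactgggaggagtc
Of the interferon-response genes, Stat2 (chr10:128270251-128270310, plus strand) and Bst2 (chr8:71537568-71537627, minus strand) are shown by the stretch around their core, and Ifit3 (chr19:34583279-34583528, plus strand) by its whole window, which has a pair of cores on the other strand.
Stat2: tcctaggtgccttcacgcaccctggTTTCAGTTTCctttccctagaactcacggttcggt
Bst2: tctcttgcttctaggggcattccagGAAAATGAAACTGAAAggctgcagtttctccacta
Ifit3: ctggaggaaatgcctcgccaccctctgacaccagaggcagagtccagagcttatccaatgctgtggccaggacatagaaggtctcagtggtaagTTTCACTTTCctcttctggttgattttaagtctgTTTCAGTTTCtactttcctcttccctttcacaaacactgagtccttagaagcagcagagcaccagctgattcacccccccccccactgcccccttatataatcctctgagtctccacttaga
The core lay 222 bases before the start in Stat2, 130 and 124 bases before it in Bst2, where a pair of cores overlap, and 156 and 122 bases before it in Ifit3. Neither window of Irf9 held a core. Ifi27 and Ifi204 had no promoter entry and could not be searched. Of the other genes looked at, the p200 genes Pyhin1 and Aim2 and the interferon-list genes Irf7, Parp12 and Eif2ak2 had no core. The windows of Ifit1 and Irgm1 held a core. The remaining genes named in this report were not looked at one by one. Over all promoters of that length, 978 of 32851 windows (2.98%) held a core, from 936 of 27025 genes (3.46%). A match is a match of letters only. It does not show that a factor binds there, and the windows of Mndal and Ifi203, one a near copy of the other, count as a single observation.

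Mndal was the gene of the 7 with the highest LFC in the SCA1 KI cerebellum. It encodes a nuclear DNA-binding p200 protein. In the cerebellum it had 199.7, 197.7 and 185.9 normalized counts in the SCA1 KI libraries (237, 288 and 192 reads) and 60.3, 41.5 and 50.1 in the WT libraries (66, 34 and 43 reads). The lowest SCA1 KI library lay above the highest WT library, and the means were 194 ± 7.5 and 50.6 ± 9.4 (SD, n = 3 each). The LFC was 1.94 with a standard error of 0.24, a fold change of 3.83 on the scale of log2(normalized count + 1). In the cortex Mndal had 29.6, 38.5 and 20.7 normalized counts in the SCA1 KI libraries and 33.3, 25.5 and 21.6 in the WT libraries. The cortical groups overlapped, with an LFC of 0.12 and a standard error of 0.24. In bulk tissue, more RNA of a gene per cell cannot be told apart from more cells that express it.

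Ifi203 encodes another p200 protein and followed the same order. In the cerebellum it had 203.0, 259.5 and 180.1 normalized counts in SCA1 KI and 85.8, 78.2 and 86.2 in WT. All 3 SCA1 KI libraries lay above all 3 WT libraries, with means of 214 ± 40.9 and 83.4 ± 4.5 (SD, n = 3 each) and an LFC of 1.34 with a standard error of 0.24. In the cortex it had 33.5, 25.3 and 35.1 normalized counts in SCA1 KI and 48.7, 33.2 and 23.9 in WT, and the groups overlapped (LFC −0.12, standard error 0.24). Mndal and Ifi203 were therefore at their lowest in the cortex of both genotypes, in the middle in the WT cerebellum and at their highest in the SCA1 KI cerebellum. For both genes the WT cerebellum range lay above that of either cortical group, and the 2 cortical groups did not differ beyond their spread.

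**Figure D1:**
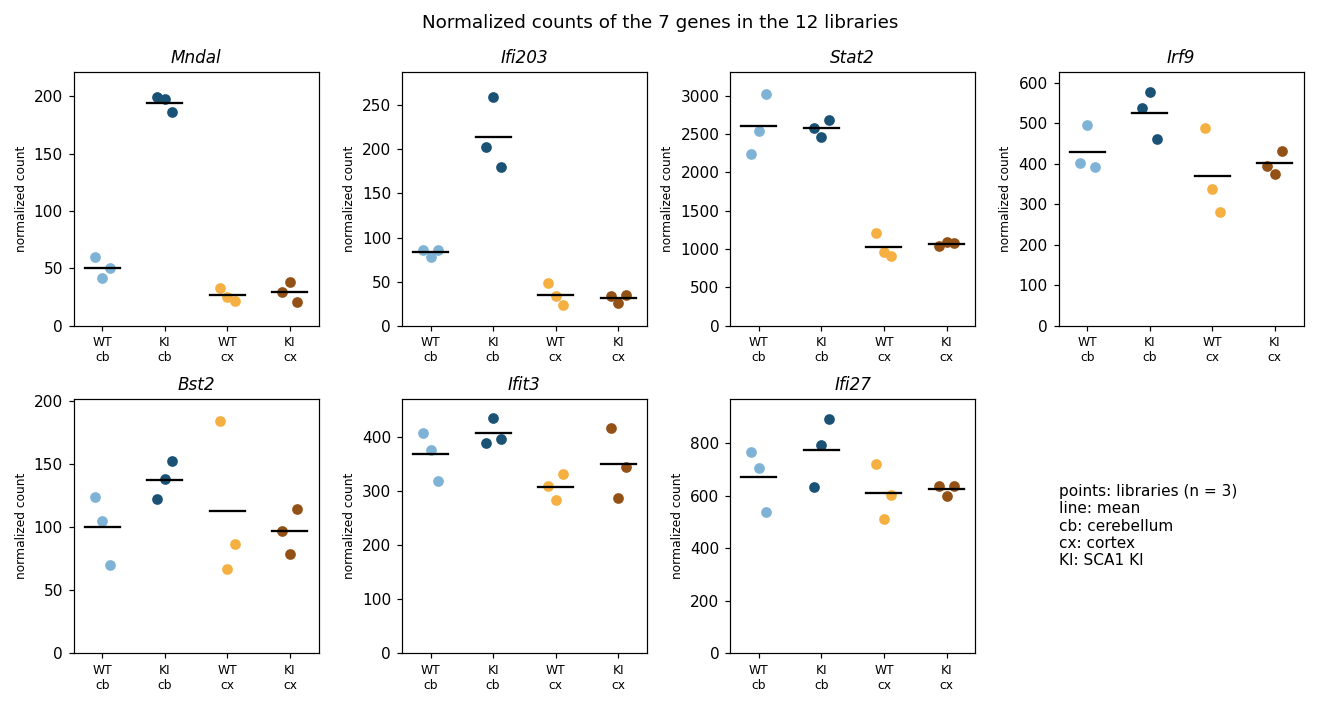
Normalized counts (vertical axes, each starting at 0) of the 7 genes in the 12 libraries, by group on the horizontal axis. Points are libraries (3 a group) and lines are means. For Mndal and Ifi203 the SCA1 KI cerebellum stands above the other 3 groups, at 185.9 to 199.7 and 180.1 to 259.5 normalized counts, and for the other 5 genes the genotypes overlap in both regions.

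Per kilobase of annotated exon, Mndal had a mean of 53.6 normalized counts in the SCA1 KI cerebellum and 14.0 in the WT cerebellum, and Ifi203 had 31.9 and 12.4. The ratio of the count of Mndal to that of Ifi203 within a library was 0.926 ± 0.144 in the SCA1 KI cerebellum and 0.605 ± 0.088 in the WT cerebellum (SD, n = 3 each). The SCA1 KI ratios ran from 0.762 to 1.03 and the WT ratios from 0.531 to 0.702, so they did not overlap. Both genes were chosen on these counts, so the ratio restates their LFCs and carries no test. In the cortex the ratio was 0.997 ± 0.476 in SCA1 KI and 0.785 ± 0.112 in WT, on 19 to 41 reads a gene.

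The 5 interferon-response genes showed smaller differences, and none had SCA1 KI libraries all above or all below the WT libraries in either region. In the cerebellum their LFCs ran from −0.0028 to 0.49, against 1.34 and 1.94 for the p200 pair, and in the cortex from −0.09 to 0.17. In the cerebellum 2 of the 7 genes, Mndal and Ifi203, met the limits used for a differentially expressed gene (DEG; adjusted p under 0.05 and absolute LFC over 0.25), as did 0.917% of all tested genes in that direction, and their groups did not overlap, as for 14.3% of all tested genes with SCA1 KI above WT and 17.5% below. In the cortex 0 of the 7 met them, against 4.82% of all tested genes higher and 10.8% lower in SCA1 KI, and for 0 were the groups apart, against 13.0% above and 18.0% below. These counts repeat what the genes were chosen for.

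**Figure D2:**
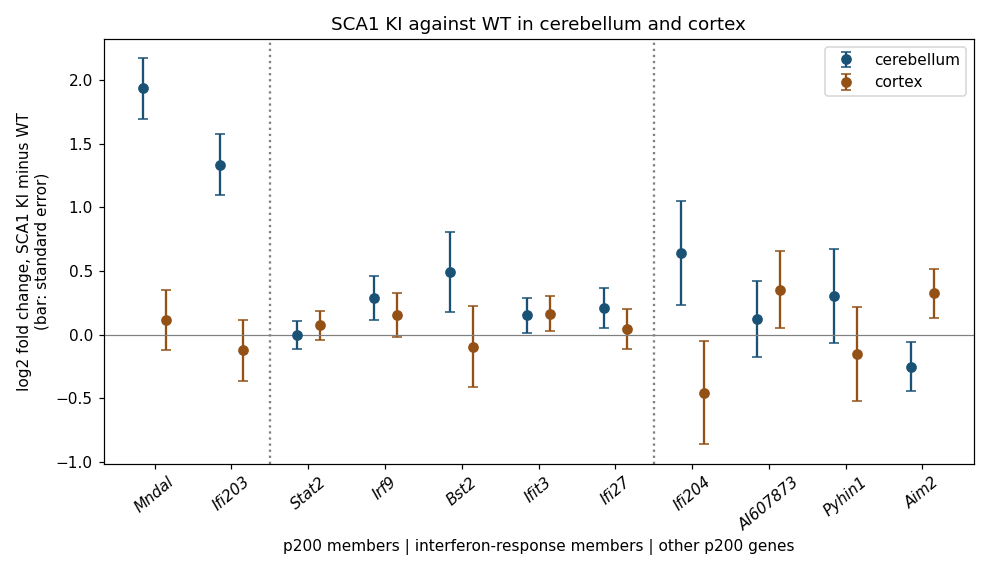
LFC of SCA1 KI against WT (vertical axis; bars, standard error) for the 7 genes and the 4 other p200 genes of the table, in cerebellum (blue) and cortex (brown). Mndal and Ifi203 have cerebellar values of 1.94 and 1.34, and those of all other genes shown lie between −0.25 and 0.64.

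Stat2 and Irf9 carry the interferon signal to the nucleus. Stat2 had 2583.1, 2464.2 and 2677.8 normalized counts in the SCA1 KI cerebellum and 2244.1, 2533.3 and 3015.6 in the WT cerebellum. The genotypes overlapped, with an LFC of −0.0028 and a standard error of 0.11. In the cortex Stat2 had 1045.6, 1095.0 and 1073.1 in SCA1 KI and 1212.1, 958.8 and 907.4 in WT (LFC 0.07). Irf9 had 538.4, 576.8 and 461.8 normalized counts in the SCA1 KI cerebellum and 401.7, 495.9 and 392.5 in the WT cerebellum, which overlap in library 5 of SCA1 KI and library 4 of WT (LFC 0.29, standard error 0.17). In the cortex Irf9 had 395.2, 375.5 and 432.5 in SCA1 KI and 488.4, 336.6 and 281.2 in WT (LFC 0.16). The WT cortex spread of Irf9 came from library B, which was the highest of the 6 cortical libraries.

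Bst2, Ifit3 and Ifi27 are targets of the response. Bst2 (tetherin), which holds budding virus particles at the cell surface, had 122.2, 138.0 and 152.0 normalized counts in the SCA1 KI cerebellum and 124.2, 105.0 and 69.9 in the WT cerebellum. Its LFC of 0.49 was the highest of the 5, with a standard error of 0.32, and WT library 2 lay above SCA1 KI library 1. In the cortex Bst2 had 96.6, 78.9 and 114.4 in SCA1 KI and 184.2, 66.4 and 86.5 in WT, where library B again was the highest (LFC −0.09). Ifit3, which acts with Ifit1 on foreign RNA, had 389.2, 436.0 and 396.0 normalized counts in the SCA1 KI cerebellum and 408.1, 376.2 and 319.1 in the WT cerebellum (LFC 0.15, standard error 0.14). Its cortical values were 415.9, 287.4 and 344.2 in SCA1 KI and 309.0, 283.4 and 332.4 in WT (LFC 0.17), and they overlapped as well. Ifi27, a small membrane protein strongly induced by interferon, had 634.4, 791.0 and 893.6 normalized counts in the SCA1 KI cerebellum and 767.8, 706.0 and 537.0 in the WT cerebellum (LFC 0.21, standard error 0.16). Its cortical values were 636.6, 598.1 and 636.1 in SCA1 KI and 720.1, 511.5 and 601.1 in WT (LFC 0.04).

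The levels in the 2 regions of WT mice belong to the same 4 groups in which the genes were chosen, and are given as a description. Mndal (LFC of WT cortex against WT cerebellum −0.90), Ifi203 (−1.27) and Stat2 (−1.34) had all 3 cortical libraries below all 3 cerebellar libraries. Regional differences were common: limma called 30.7% of all tested genes lower and 31.0% higher in WT cortex. The share of all tested genes with these groups apart is not given here. For Irf9 (−0.25), Ifit3 (−0.25), Ifi27 (−0.13) and Bst2 (0.07) the regions overlapped. Without library B of the WT cortex, the value of Irf9 was −0.47 and that of Bst2 −0.35. The cerebellar libraries came from an earlier data set of the same laboratory, so region and sequencing set cannot be told apart in this comparison. Both WT groups also enter the comparisons of genotype.

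Of the p200 list, 4 genes besides Mndal and Ifi203 were in the table. Ifi204, AI607873 (Ifi207 in GENCODE) and Pyhin1 (Ifi209 in GENCODE) had low levels, of 5.8 to 23.8, 9.8 to 23.3 and 8.0 to 16.9 normalized counts over the 12 libraries. Aim2, a sensor of DNA in the cytoplasm that builds an inflammasome, had 60.7 to 119.8. In the cerebellum the LFC was 0.64 for Ifi204 (95% interval −0.24 to 1.52), 0.12 for AI607873 (−0.53 to 0.78), 0.30 for Pyhin1 (−0.49 to 1.10) and −0.25 for Aim2 (−0.67 to 0.16). In the cortex the values were −0.45, 0.35, −0.15 and 0.32 in the same order, and the 3 SCA1 KI libraries of Aim2 lay above the 3 WT libraries (adjusted p = 0.283). With limma 0 of the 4 were called in either region, 0 had an unadjusted p under 0.05, and edgeR and DESeq2 also called 0. AI607873 had 8 to 23 reads a library and Pyhin1 7 to 20, and differences within the intervals above are not excluded. Ifi204 also shares 13.2% of its 75-base stretches with other genes.

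Values were taken for 29 tested genes whose lowest coordinate lies within 2000 kb of that of Mndal, 27 of them besides Mndal and Ifi203. Genes of this region that are not reported here, some of them called, were left out of the 27. The shares over all tested genes leave none out, so the counts below are not comparable with them. In the cerebellum 0 of these 27 were called higher in SCA1 KI by limma, by edgeR or by DESeq2, against 0.917% of all tested genes by limma. limma and edgeR called 0 of the 27 lower, against 4.44% of all tested genes by limma, and DESeq2 called 1, the opsin gene Opn3 (LFC −0.48, adjusted p = 0.0386 by DESeq2, and 0.102 by limma). By unadjusted p under 0.05, 3 were higher and 4 lower, and the share of all tested genes at that limit is not given here. With length and GC trends removed, limma called 1 higher, the phosphatase gene Dusp23 (0.42, adjusted p = 0.0237). Opn3 and Dusp23 were named after their values were seen. In the cortex 0 were called higher by any of these tools, with 0 higher at an unadjusted p under 0.05, and 4 were called lower by limma, against 10.8% of all tested genes: the potassium channel genes Kcnj9 (−0.62) and Kcnj10 (−0.58), the atypical chemokine receptor gene Ackr1 (−0.81), and Rgs7 (−0.51), a regulator of G protein signalling. The median LFC of the 27 genes was −0.035 in the cerebellum and −0.0039 in the cortex.

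**Figure D3:**
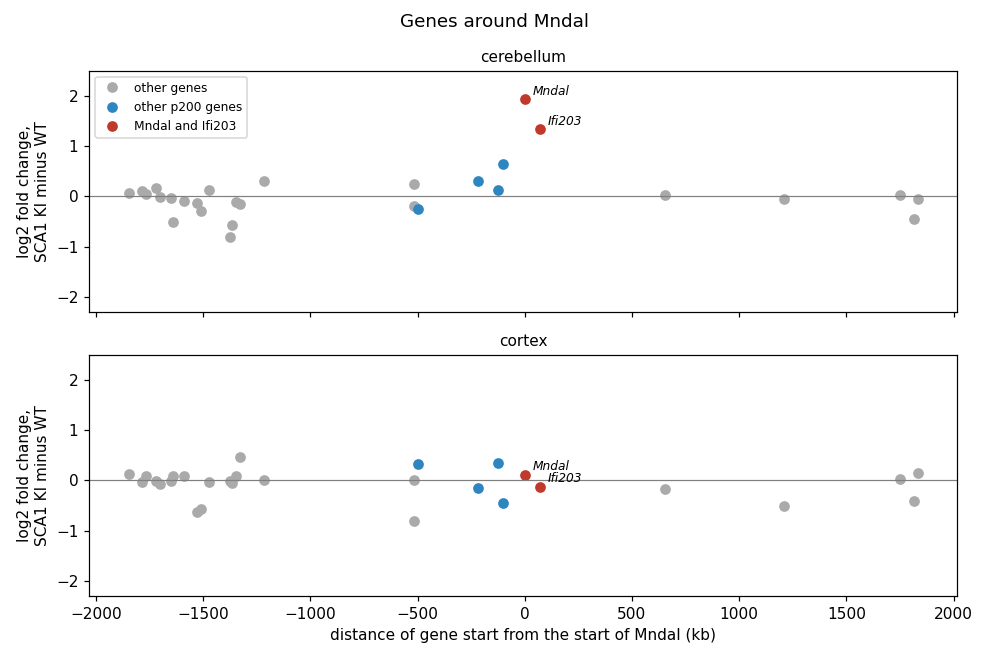
LFC of SCA1 KI against WT (vertical axes) of 29 tested genes within 2000 kb of Mndal, by the distance in kb of the lowest coordinate of each gene from that of Mndal (horizontal axis), in cerebellum (top) and cortex (bottom). Genes of this region that are not reported here, some of them called, are not drawn. Mndal and Ifi203 (red) at 1.94 and 1.34 stand above all other genes shown in the cerebellum, and in the cortex the p200 pair lies near 0.

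The wider interferon response was described over 5 lists with 136 symbols, of which 123 were in the table and 116 were tested without the 7 genes. In the cerebellum 5 of the 116 rose and 0 fell, against 0.917% of all tested genes higher and 4.44% lower. With trends on transcript length and GC removed, an alternative added after the data were seen, 9 rose and 0 fell, against 3.62% and 3.99% of all tested genes. Their median LFC was 0.14 (−0.0049 over all tested genes), and 84 of 116 (72.4%) had an LFC above 0, as did 48.7% of all tested genes. By unadjusted p under 0.05, 19 were higher and 0 lower. The share of all tested genes at that looser limit is not given here, and the shares above are for adjusted calls. edgeR called 4 higher and DESeq2 6, and both called 0 lower.

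The 5 that rose in the cerebellum were Irf7, Ifit1, Eif2ak2, Parp12 and Irgm1. Irf7, the transcription factor that amplifies type I interferon, had 152.5, 168.2 and 130.7 normalized counts in SCA1 KI and 86.7, 56.2 and 57.1 in WT (LFC 1.18, adjusted p = 0.0223). Ifit1, a protein that binds foreign RNA caps, had 263.7, 260.9 and 212.0 in SCA1 KI and 178.0, 105.0 and 100.2 in WT (LFC 0.98, adjusted p = 0.0204). For both genes WT library 2 was the highest of the WT cerebellum and the groups did not overlap. Eif2ak2 (PKR), a kinase activated by double-stranded RNA, had 489.5, 539.0 and 518.9 in SCA1 KI and 388.9, 397.0 and 377.4 in WT (LFC 0.41, adjusted p = 0.0184). Parp12, an antiviral ADP-ribosyltransferase, had 807.1, 692.1 and 753.2 in SCA1 KI and 522.2, 504.5 and 509.0 in WT (LFC 0.55, adjusted p = 0.00213). Irgm1, an interferon-inducible GTPase, had 433.1, 472.4 and 469.5 in SCA1 KI and 387.1, 331.0 and 283.0 in WT (LFC 0.47, adjusted p = 0.0428).

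By list, the 49 tested interferon-induced effectors besides Bst2, Ifit3 and Ifi27 had 3 higher and 0 lower in the cerebellum, with a median LFC of 0.22. The 29 genes of interferon-gamma and antigen presentation had 1 higher, Irgm1, and a median of 0.16. Of the 8 interferon regulatory factors besides Irf9, 1 rose, Irf7, with a median of −0.02 for the list. Of 15 genes for receptors and JAK-STAT signalling besides Stat2 and Irf9, limma called 0 (3 at an unadjusted p under 0.05, median 0.04), and of 15 nucleic acid sensors and adaptors, 0 (1 at an unadjusted p under 0.05, median 0.04).

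Parp12 was the 1 gene of the 5 whose call held without any single one of the 6 cerebellar libraries (LFC 0.50 to 0.61). Irf7 (1.08 to 1.39) and Ifit1 (0.83 to 1.24) lost theirs when library 1, 3, 4 or 6 was left out, Eif2ak2 when library 3, 5 or 6 was left out, and Irgm1 when any library but 2 was left out. Between 1 and 7 of the list genes were called higher in these fits: 2 when library 1 or 4 was left out, 1 when 3 or 6 was, and 3 when 5 was.

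In the cortex the median LFC of the same 116 genes was 0.07. An LFC above 0 was found for 75 of 116 (64.7%), as for 49.5% of all tested genes. By unadjusted p under 0.05, 16 were higher and 14 lower, again without the share of all tested genes at that limit. The calls went both ways: limma called 5 higher and 7 lower, against 4.82% and 10.8% of all tested genes. Higher were Parp12 (0.45, adjusted p = 0.00264) and Irgm1 (0.45, adjusted p = 0.0233), which also rose in the cerebellum, the nucleotide hydrolase gene Samhd1 (0.43, adjusted p = 0.00248), Ifnlr1, the receptor chain for interferon lambda (1.75, adjusted p = 0.0177), and the adaptor gene Myd88 (0.29, adjusted p = 0.0496). Ifnlr1 was at 8.9 to 18.0 normalized counts in SCA1 KI and 1.1 to 5.5 in WT, which is 1 to 5 reads in the WT libraries. Lower were the signalling inhibitor Socs3 (−0.83, adjusted p = 0.0249), the transcriptional repressor Irf2 (−0.27, adjusted p = 0.0332), the helicase genes Helz2 (−0.57, adjusted p = 0.0328) and Znfx1 (−0.74, adjusted p = 2.62e-05), the ubiquitin ligase gene Herc6 (−0.95, adjusted p = 2.08e-04), Slfn2 (−0.76, adjusted p = 0.0280) and the MHC class Ib gene H2-T23 (−0.68, adjusted p = 0.00241). Cortical Herc6 stood at 585.4, 546.5 and 538.8 normalized counts in SCA1 KI and 951.8, 1167.0 and 1112.3 in WT, and Znfx1 had 2313.0, 2677.9 and 2659.8 against 4367.1, 4289.3 and 4063.4. The groups did not overlap for either gene.

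The difference in LFC between cortex and cerebellum was read only for the list genes called in either region. By limma's test of that difference, 5 of them passed: Socs3, Herc6, Slfn2, Znfx1 and H2-T23, each with the lower LFC in the cortex. Over all tested genes 8.15% passed. Genes picked for a call in a region are more likely to pass, so this count is not comparable with that share. The calls of Parp12, Samhd1, Herc6, Znfx1 and H2-T23 held without any single one of the 6 cortical libraries. Myd88 lost its call without each of the 6, Socs3 and Helz2 without A, B, C or F, Irf2 without B, C, E or F, Slfn2 without A, B, C or E, Ifnlr1 without D, E or F, and Irgm1 without A, C or D. The number of list genes called higher was 3 without library C, 2 without D and 3 without E, and the number called lower was 3 without B and 3 without C.

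**Figure D4:**
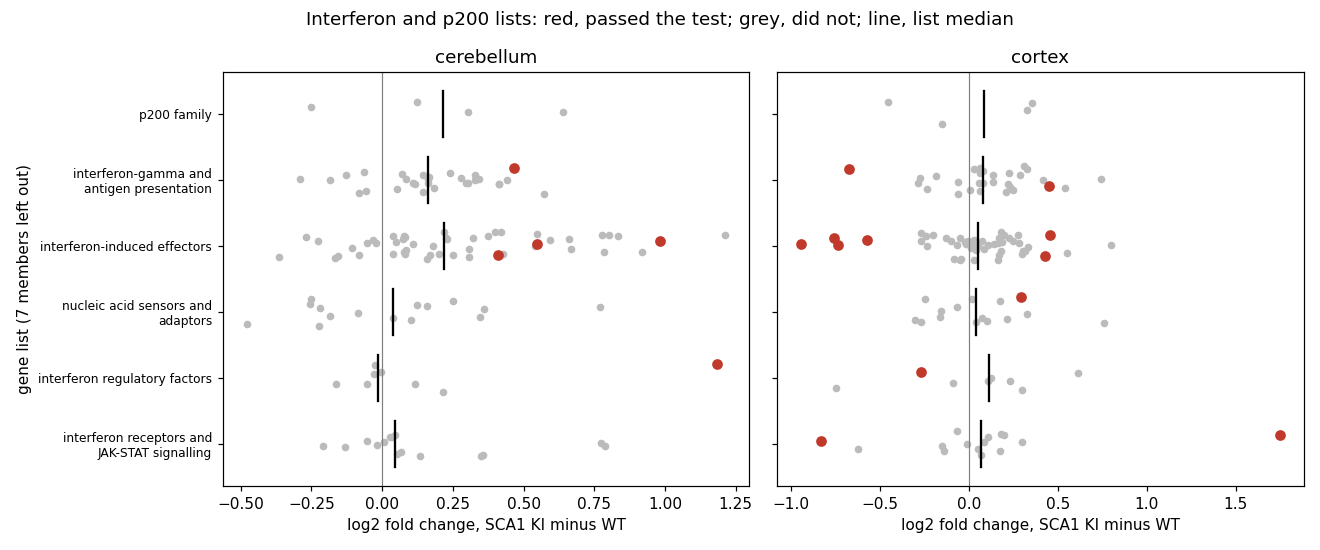
LFC of SCA1 KI against WT (horizontal axes) of the 4 other p200 genes and of the genes of the 5 interferon lists, the 7 genes left out, in cerebellum (left) and cortex (right). Each point is a gene, its height within a row is jitter, red points passed the limma test, black lines are list medians, and a gene of more than 1 list is drawn in each. In the cerebellum the 5 red genes lie between 0.41 and 1.18, and in the cortex there are 5 on the right of 0 and 7 on the left.

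Markers of cell types that respond to interferon were measured in the same libraries. The 12 microglia markers had 0 called higher and 1 lower in the SCA1 KI cerebellum (P2ry12, LFC −0.46, adjusted p = 0.0267), with a median LFC of −0.22 and a summed level of 6515 to 6671 normalized counts in SCA1 KI and 6997 to 9257 in WT. In the cortex the summed microglia level was 19375 to 21529 over all 6 libraries. Of 16 markers of border macrophages and blood leukocytes, 8 were in the table and limma called 0 in the cerebellum (0 at an unadjusted p under 0.05). Their summed level was 733 to 981 in SCA1 KI and 680 to 992 in WT, and the T and B cell markers Cd3e, Cd3g, Cd8a, Cd79a and Ms4a1 were not listed. The 10 endothelial markers also had 0 calls in the cerebellum (0 at an unadjusted p under 0.05), at 10803 to 12229 in SCA1 KI and 11233 to 12773 in WT. The 6 astrocyte markers were at 104890 to 108352 in SCA1 KI and 115740 to 117473 in WT, with 1 called lower, Aldh1l1 (LFC −0.27). Of these 6, 0 had an LFC above 0, 3 had an unadjusted p under 0.05, and 4 had all SCA1 KI libraries below all WT libraries. An LFC above 0 was found for 6 of the 8 leukocyte markers and 5 of the 10 endothelial markers.

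The choroid plexus varied between the cerebellar dissections: its 6 markers summed to 836, 25590 and 76880 normalized counts in SCA1 KI libraries 1, 3 and 5 and to 22418, 73611 and 19780 in WT libraries 2, 4 and 6. Mndal was at 199.7 in library 1 and 185.9 in library 5, the lowest and the highest of SCA1 KI for these markers. Without library 1, 3 or 5 or any of the WT libraries in turn, the cerebellar LFC stayed between 1.80 and 2.07 for Mndal and between 1.19 and 1.45 for Ifi203. The part of microglia and other cell types in the results for Mndal, Ifi203, Irf7, Ifit1 and the other list genes was not tested.

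The genes whose pattern over the 12 libraries was most like that of Mndal were found from the root mean square difference of log2(normalized count + 1), centred on each gene's mean. Of all tested genes, Ifi203 was the most alike (0.40), followed by the mucin gene Muc15 (0.47), the plakin gene Ppl (0.54), Igsf10 (0.56) and the taste receptor gene Tas1r3 (0.56). For Ifi203 the order was Muc15 (0.26), Mndal (0.40), the let-7b host gene Mirlet7bhg (0.40), Sgol1 (0.41) and Kctd8 (0.42). Muc15 had 155.9, 172.3 and 157.8 normalized counts in the SCA1 KI cerebellum and 85.8, 81.8 and 83.9 in WT, against 21.3 to 33.3 in the cortex. Igsf10 was at 849.3 to 901.3 in the SCA1 KI cerebellum and 421.4 to 546.9 in WT, and unlike Mndal it was also higher in the SCA1 KI cortex, at 200.1 to 256.0 against 100.8 to 129.5. Being picked for their likeness over these libraries, these genes carry no test. None of them but Mndal and Ifi203 is on the p200 or interferon lists.

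**Figure D5:**
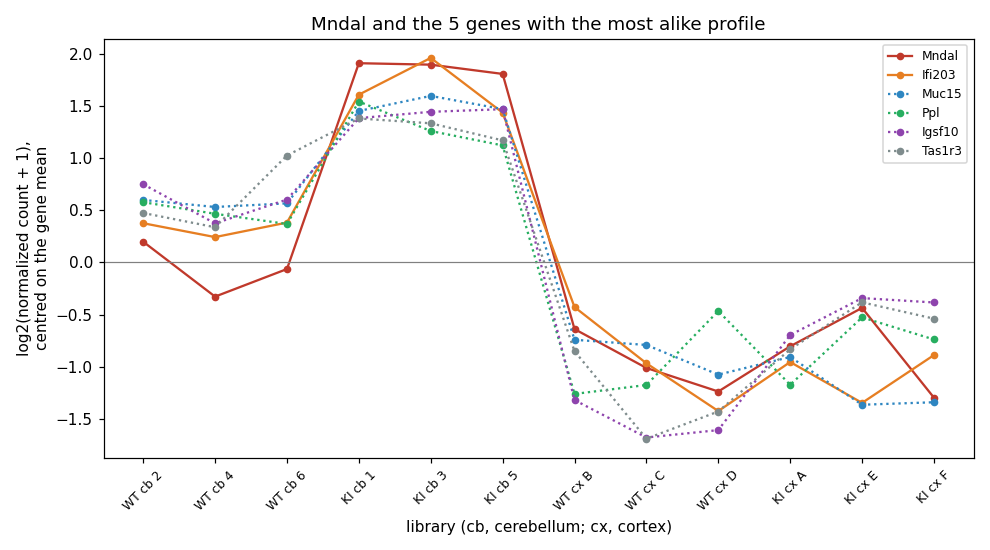
Level of Mndal and of the 5 genes most alike to it in each of the 12 libraries (horizontal axis), as log2(normalized count + 1) minus the mean of the gene (vertical axis). Lines join the values of a gene for the eye only, and all 6 genes are highest in the 3 SCA1 KI cerebellum libraries and low in the cortex.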

How the data were processed

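Poly-adenylated RNA of macrodissected whole cerebellum and cortex was sequenced as 75-base paired ends in 12 libraries, 3 a group. The sources used here do not state that the libraries of a group came from separate mice, so p-values measure only the spread between these libraries, which may be technical in part. Reads were mapped by the authors to mm10 with STAR, summed over genes with featureCounts and scaled with DESeq2 (versions not given in the sources used here). The deposited signal is the normalized count, which is the reads of a gene over 1 size factor of its library. All 12 columns were mapped to a group by name, but they carry no replicate number of the labels. Every value gave whole reads within a tolerance of 0.01, and these reads were used for edgeR and DESeq2.

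The 15369 genes with an average normalized count of 10 or more were fitted on log2(normalized count + 1) in R 4.3.3, with limma 3.58.1 (trended empirical Bayes) and 1 mean per group over all 12 libraries. The pseudocount of 1 understates the LFC of low genes. Adjusted p are Benjamini-Hochberg values over all genes tested, from limma unless another tool is named. Counts at an unadjusted p under 0.05 are given without the share of all tested genes at that limit. A DEG needed an absolute LFC over 0.25 as well as an adjusted p below 0.05, and the difference between regions was called on adjusted p alone. Intervals are 95% t intervals with the degrees of freedom of limma.

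The 7 genes and all lists were chosen with earlier results of these data known. Genes named were the 7, all other p200 genes in the table, interferon list genes called in either region, genes called within 2000 kb of Mndal, the 5 genes most alike in pattern to Mndal and to Ifi203, and Atxn1. Some genes, 2 of them within 2000 kb of Mndal that were called, are not reported here and were left out of the values and counts of that region. Markers were named after their values had been seen. The lists held p200 genes, 5 parts of the interferon response and 8 sets of cell markers. Of the marker sets not described with the results, limma called 0 in the cerebellum for choroid plexus (0 at an unadjusted p under 0.05), red blood cells (1 of 5 symbols in the table, 1 at an unadjusted p under 0.05) and cerebellar neurons (1 at an unadjusted p under 0.05), and 1 higher and 3 lower of 8 for cortical excitatory neurons. In the cortex it called 4 astrocyte markers lower, 3 each of the cortical and cerebellar neurons and 1 of red blood cells, and 0 of microglia, leukocytes, endothelium and choroid plexus (of these 2 endothelial genes had an unadjusted p under 0.05).

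Alternatives were edgeR 4.0.16, DESeq2 1.42.0, pseudocounts of 0.5 and 5, no filter or a mean of 50 as the filter, fits of 1 region alone, median centring, an LFC limit of 0 or 1, and fits that each left out 1 library. Thinning of all libraries to 29520855 reads, and removal of trends on length and GC of the transcript, were added after the data were seen. Replicates differed by more than sampling noise, with a chi-square per gene of 7.43 to 36.0. Positions, exons and shared 75-base stretches are from GENCODE vM21 on GRCm38, which holds the same sequence as mm10, and promoters from RefSeq on GRCm38.p6.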

Additional observations from a re-analysis of the deposited data

Results flagged for a closer look

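The difference between cortex and cerebellum in the LFC of SCA1 KI against WT was tested for named genes. The 7 members and the genes picked for a pattern like Mndal or Ifi203 were left out. Of the rest, 7 passed the test (limma, adjusted p over all genes), and of all tested genes 8.15% passed. All 7 that passed had been named for a genotype call, which each had in the cortex. Such a call makes a difference between regions more likely, so this count is not comparable with that share. On the interferon lists, Socs3 had an LFC of 0.77 in the cerebellum and −0.83 in the cortex, a difference of −1.60 (adjusted p = 0.00889). Herc6 had −0.05 and −0.95, a difference of −0.89 (adjusted p = 0.00663). Slfn2 had 0.31 and −0.76, a difference of −1.06 (adjusted p = 0.0493), which passed without 3 of the 12 libraries in turn and not without the other 9. Znfx1 had 0.04 and −0.74, a difference of −0.78 (adjusted p = 7.92e-04). H2-T23 had 0.12 and −0.68, a difference of −0.79 (adjusted p = 0.0147). Around Mndal, Ackr1 had −0.19 and −0.81, a difference of −0.62 (adjusted p = 0.0179), lost without SCA1 KI cerebellum library 1 (adjusted p = 0.0512). Rgs7 had −0.05 and −0.51, a difference of −0.46 (adjusted p = 0.0107). All 7 differences are differences between sequencing sets as much as between regions, since each region came from 1 set. Groups of 3 libraries are too small for a test that screens for single libraries that stand apart. What is said of WT cerebellum library 2 and WT cortex library B is a description.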

How the results depend on the processing

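With 3 libraries a group, calls of single list genes depended on single libraries, as given beside them. No paired analysis was possible because the columns of the table carry no replicate number of the labels. The cerebellar LFC of Mndal was 1.86 to 1.98 and that of Ifi203 1.30 to 1.38 under the alternatives that kept all libraries. Of 1348 values under an alternative, 1242 kept their direction and side of the threshold, stayed within 1.5 times for a count, or, with no test, moved by less than the spread between replicates. For the counts over all genes, the cerebellum had 220 higher with the region on its own, 231 with DESeq2, 551 with length and GC trends removed and 9 with an LFC limit of 1 (main 141), and 303 lower with that limit. The cortex had 393 higher with the region on its own and 90 with the limit of 1, and 233 lower with it. Between regions the limit of 1 gave 2021 higher and 1599 lower. Of all calls in the cerebellum 17.1% were higher, 24.0% after median centring and 47.5% with length and GC trends removed, and in the cortex 30.8%, and 44.0% with those trends removed. Of the other p200 and interferon genes, 9 were higher in the cerebellum with length and GC trends removed and 1 with the limit of 1. In the cortex 3 were higher and 4 lower with the region on its own, and 1 and 0 with the limit of 1. The cause was not tested, except that a stricter limit admits fewer genes by construction. Without 1 library, the counts were 43 to 195 higher and 356 to 806 lower in the cerebellum, 783 to 1267 for the difference between regions, 1 to 7 higher list genes in the cerebellum, and 2 to 7 higher and 3 to 9 lower in the cortex. Without 1 library, the LFC between regions was −0.47 to −0.077 for Irf9 and −0.35 to 0.38 for Bst2. The direction turned for thinned reads in Pyhin1 (−0.031 in the cerebellum, 0.11 in the cortex) and in Herc6 in the cerebellum (0.0019). It also turned without 1 library, over ranges of −0.053 to 0.30 for AI607873, −0.023 to 0.17 for Helz2, −0.16 to 0.042 for Herc6 and −0.0022 to 0.081 for Znfx1 in the cerebellum, and −0.34 to 0.15 for Pyhin1 in the cortex. Among the 7 genes, the cortical LFC between genotypes turned without 1 library for Mndal (−0.088 to 0.34), Ifi203 (−0.37 to 0.13) and Stat2 (−0.0094 to 0.20). It did so also for Irf9 (−0.018 to 0.38), Bst2 (−0.40 to 0.33) and Ifi27 (−0.078 to 0.17). In the cerebellum it turned for Stat2 (−0.10 to 0.11). None of these values had a call to lose.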
